A study of Mus musculus with 12 samples.

Results

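A set of 10 Sox transcription factor genes, better known from neural, skeletal, vascular and muscle development than from pluripotency or endoderm, was followed in totipotent potential stem (TPS) cells and extended pluripotent stem (EPS) cells of the mouse. They were 10 of the 55401 genes in the count files and were taken by name: Sox3, Sox4, Sox5, Sox6, Sox8, Sox9, Sox11, Sox12, Sox15 and Sox18. The study compared the transcriptome of TPS cells, which are grown to resemble the 2-cell embryo, with that of EPS cells. RNA of 3 TPS lines and 3 EPS lines was sequenced, with 2 technical replicates per line, which gave 12 libraries. Per the labels, TPS cells were kept in VCED medium and EPS cells in LCDM medium, both on feeder cells, and the methods of the study describe the TPS medium by the name CPEC, with a RARγ agonist, the histone deacetylase inhibitor VPA, a DOT1L inhibitor and a GSK3 inhibitor, on mitomycin C-inactivated mouse embryonic fibroblasts. The labels give no strain, genotype, sex or passage for the lines, and they do not say from which embryos or EPS cells each TPS line came. The 2 libraries of a line were summed, so n counts lines, and p-values cover the spread between these 3 lines per group. Bulk RNA was measured, so fewer cells of a type and less RNA per cell cannot be told apart.

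Sox proteins bind DNA through an HMG box, which fits into the minor groove and bends the helix, and they usually act together with partner factors on the same element. The family is divided into subgroups by the HMG box. Members of one subgroup often act in the same tissues: SoxC factors (Sox4, Sox11 and Sox12) in neural and mesenchymal progenitors, SoxE factors (Sox8 and Sox9) in neural crest, gonad and cartilage, SoxD factors (Sox5 and Sox6) beside Sox9 in cartilage, and SoxF factors, among them Sox18, in blood and lymph vessels. Sox3 is a SoxB1 factor of neural progenitors and the closest relative of Sox2. Sox15 is the only SoxG factor of the mouse, is expressed in pluripotent stem cells and placenta, and acts in muscle regeneration.

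Because the HMG box is the stretch that these genes have in common, and reads of 100 bases were assigned among them, its coding sequence was compared first. The first 60 bases of the stretch are given for each member from the GENCODE M21 transcripts (GRCm38), 5′ to 3′ on the coding strand, with the 23 bases that were identical in all 10 genes in capitals.
Sox3: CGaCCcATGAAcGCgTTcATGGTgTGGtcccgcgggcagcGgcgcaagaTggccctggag
Sox4: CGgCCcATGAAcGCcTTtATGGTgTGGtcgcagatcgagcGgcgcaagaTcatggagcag
Sox11: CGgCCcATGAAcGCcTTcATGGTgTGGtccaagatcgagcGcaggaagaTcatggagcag
Sox12: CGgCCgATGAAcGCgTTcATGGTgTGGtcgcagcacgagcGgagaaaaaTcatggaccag
Sox5: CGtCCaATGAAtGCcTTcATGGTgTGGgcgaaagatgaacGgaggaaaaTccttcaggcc
Sox6: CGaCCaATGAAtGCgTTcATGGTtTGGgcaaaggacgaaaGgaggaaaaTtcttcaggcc
Sox8: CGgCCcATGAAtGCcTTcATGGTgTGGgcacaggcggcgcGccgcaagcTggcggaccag
Sox9: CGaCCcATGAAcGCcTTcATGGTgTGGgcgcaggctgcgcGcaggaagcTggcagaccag
Sox18: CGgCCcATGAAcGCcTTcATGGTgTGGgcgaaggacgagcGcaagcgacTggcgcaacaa
Sox15: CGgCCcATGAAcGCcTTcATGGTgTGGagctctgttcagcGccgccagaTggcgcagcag
Over 210 bases of the box, the 5 pairs of genes within a subgroup were 82.4% to 91.0% identical, with a median of 85.7%. The other 40 pairs were 52.9% to 78.1% identical, with a median of 67.1%. The longest run of bases shared by any pair was 48 bases, between Sox4 and Sox11, which is shorter than a read. A search of all GENCODE M21 transcripts for stretches of at least 100 bases with at least 95% identity found no other gene for 8 of the 10 members. For Sox4 and Sox8 it found overlapping antisense genes, which are described with them.

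Library depth, sample identity and background are given together here. The libraries held 13676051 to 21821707 counts each, and the lines 29877215 to 38466294. The 5 genes of the 2-cell embryo chosen to mark TPS cells (Zscan4c, Zscan4d, Zfp352, Tcstv1 and Tcstv3) summed to 110 to 150 CPM (counts scaled by the size of the library, with TMM factors) in the TPS lines and to 0.059 to 0.085 CPM in the EPS lines. The 6 pluripotency genes (Pou5f1, Nanog, Esrrb, Zfp42, Utf1 and Tdgf1) summed to 1982 to 2107 CPM in the TPS lines and to 3244 to 4071 CPM in the EPS lines, with 3 of the 6 lower in TPS cells (Pou5f1, Esrrb and Tdgf1), while Nanog, Zfp42 and Utf1 did not pass the test and overlapped. All 16 fibroblast genes were detected in both groups, with Fap at 0 in EPS line 1, and summed to 3558 to 6160 CPM in the TPS lines against 481 to 1427 CPM in the EPS lines, and 11 of the 16 were higher in TPS cells, while the other 5 did not pass the test. Over all tested genes, 14.4% were called higher and 7.34% lower. Of the fibroblast genes, those with the lowest adjusted p were the matrix protease Mmp2 (log2 fold change 2.04, edgeR adjusted p = 0.00777), the collagen crosslinker Loxl1 (2.06, adjusted p = 0.00897) and the PDGF receptor Pdgfrb (2.21, adjusted p = 0.0106), and the most abundant fibroblast gene not called was the matrix protein Postn (1.58, adjusted p = 0.139). The part of the fibroblast RNA in the results on Sox genes was not tested. TPS line 1, which had the highest fibroblast sum, had the lowest CPM of the 3 TPS lines for 9 of the 10 Sox genes, with Sox5 the exception. EPS line 1, which had the lowest fibroblast sum, had the lowest CPM of the EPS lines for 3 of the 10, namely Sox5, Sox9 and Sox11.

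Of the 10 genes, 9 passed the filter on low counts and 4 of these were higher in TPS than in EPS cells at an adjusted p under 0.05 (Sox3, Sox4, Sox8 and Sox9), while 0 were lower. At an unadjusted p under 0.05, 5 were higher, Sox6 being the addition, and 0 were lower, against 21.8% and 15.2% of all tested genes. Across all 17468 genes tested, 14.4% were called higher and 7.34% lower in TPS lines (2509 and 1282 genes). Sox8 passed the filter only through the TPS lines, and of the other 8 members 3 were higher and 0 lower, against 10.8% and 7.6% of the 16596 genes that did not pass through 1 group alone. The median log2 fold change was 1.24 over these 8 members and -0.04 over those genes. Without composition factors 5 members were higher and 0 lower, against 17.1% and 4.26% of all genes (2987 and 745). DESeq2 called 5 members higher and 0 lower, against 15.8% and 7.61% of the genes it tested, and limma-voom 5 and 0, against 13.9% and 7.13%. The first technical library of each line alone gave 3 members higher and 0 lower, against 12.8% and 6.6% of genes, and the second gave 5 and 0, against 12.9% and 6.6%. Every TPS line was above every EPS line for 5 members (Sox3, Sox4, Sox6, Sox8 and Sox9) and below for 1 (Sox12), against 23.6% of all tested genes above and 19.1% below. The lines overlapped for Sox5, Sox11, Sox15 and Sox18. Sox18 did not pass the filter on low counts and has no test.

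**Figure D1:**
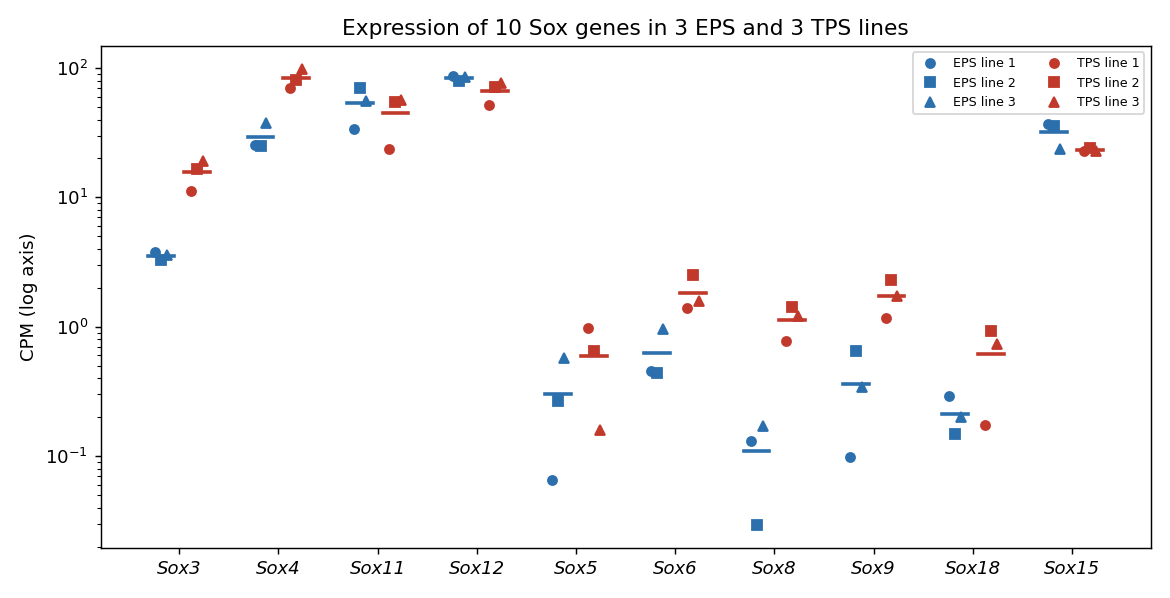
Expression of the 10 Sox genes in each line, in CPM on a log axis, with circles, squares and triangles for lines 1, 2 and 3 of EPS (blue) and TPS (red) cells and a bar at the group mean. Sox4, Sox11, Sox12 and Sox15 lay above 20 CPM in every line, and Sox5, Sox6, Sox8, Sox9 and Sox18 below 3 CPM.

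**Figure D2:**
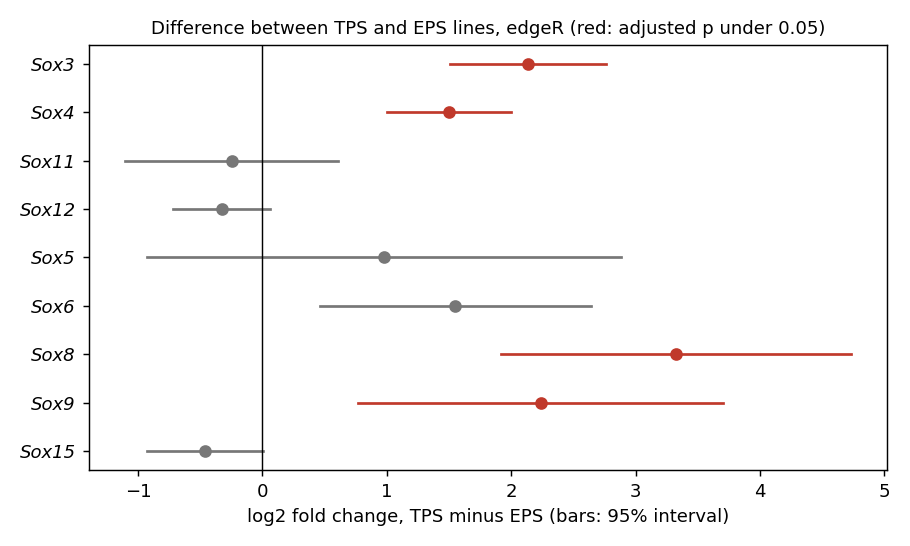
Log2 fold change between TPS and EPS lines from edgeR for the 9 tested members, with 95% confidence intervals as bars and members with an adjusted p under 0.05 in red. The intervals of Sox3, Sox4, Sox6, Sox8 and Sox9 lay above 0, and those of Sox5, Sox11, Sox12 and Sox15 included 0.

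Sox3 was higher in TPS than in EPS cells. The gene has 1 exon at chrX:60891366-60893430 on the minus strand (ENSMUSG00000045179.9, GRCm38). It measured 3.82, 3.27 and 3.56 CPM in EPS lines 1, 2 and 3, from 111 to 125 counts, and 11.2, 16.7 and 19.0 CPM in TPS lines 1, 2 and 3, from 448 to 643 counts. The lowest TPS line was above the highest EPS line, and the EPS lines lay close together. Mean expression was 15.6 ± 3.99 CPM in TPS and 3.55 ± 0.276 CPM in EPS cells (SD, n = 3 each), with a log2 fold change of 2.14 (SE 0.270, 95% CI 1.51 to 2.76, edgeR adjusted p = 0.00343). The call was kept in all 18 alternative fits, at log2 fold changes from 1.97 to 2.35. Gm14662, an antisense transcript that starts 223 bases from the Sox3 start, had 17 counts over all 12 libraries.

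Sox2, the SoxB1 relative of Sox3 that maintains pluripotency, measured 389 ± 43.2 CPM in TPS and 552 ± 72.6 CPM in EPS cells, with a log2 fold change of -0.51 (edgeR adjusted p = 0.0507). Sox1, the third SoxB1 gene, measured 0.896 ± 0.411 and 1.57 ± 0.449 CPM (log2 fold change -0.81, edgeR adjusted p = 0.264). Of the 3 SoxB1 genes, Sox3 was thus the one that passed the test, and the difference between their fold changes was not tested.

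The 3 SoxC genes were each expressed well above the counting floor in every line, and 1 of them was higher in TPS cells. Sox4, a factor of progenitor cells in many tissues, lies at chr13:28948919-28953713 on the minus strand (ENSMUSG00000076431.4) in 1 exon. It measured 25.5, 25.1 and 37.6 CPM in EPS lines 1, 2 and 3 and 69.6, 81.6 and 98.8 CPM in TPS lines 1, 2 and 3. Each TPS line was above each EPS line, and the gap between the groups exceeded the spread within either. Its log2 fold change was 1.50 (SE 0.215, 95% CI 1.00 to 2.00, edgeR adjusted p = 0.00473), from means of 83.3 ± 14.7 CPM in TPS and 29.4 ± 7.12 CPM in EPS cells (SD, n = 3 each). The call was kept in all 18 alternative fits, at 1.36 to 1.71. Gm26735, a long noncoding RNA gene, lies antisense over Sox4, and 2616 bases, or 54.6% of the Sox4 transcript, are identical to it in reverse. Whether the counting used strand is not given in the sources used here, and Gm26735 itself was not analysed here.

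Sox11, a factor of immature neurons and mesenchyme, lies at chr12:27334264-27342574 on the minus strand (ENSMUSG00000063632.6). It measured 34.0, 70.3 and 55.4 CPM in EPS lines 1, 2 and 3 and 23.9, 54.3 and 56.4 CPM in TPS lines 1, 2 and 3. Line 1 was low in both groups, and the groups overlapped. Sox11 had a log2 fold change of -0.25 (SE 0.370, 95% CI -1.11 to 0.61, edgeR adjusted p = 0.669). Without TPS line 1 it was 0.05, so its sign rested on that line, and over the other left-out lines it ran from -0.51 without EPS line 1 to -0.02 without EPS line 2. Without composition factors it was -0.11 (adjusted p = 0.877), and with the second technical library of each line alone -0.14 (adjusted p = 0.831).

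Sox12, the third SoxC gene, is broadly expressed in embryos and lies at chr2:152393611-152398063 on the minus strand (ENSMUSG00000051817.8). It measured 86.2, 79.3 and 85.8 CPM in EPS lines 1, 2 and 3 and 51.9, 71.3 and 77.0 CPM in TPS lines 1, 2 and 3. Every TPS line was below every EPS line, TPS line 3 by a narrow margin. Its log2 fold change of -0.33 (SE 0.168, 95% CI -0.72 to 0.06) did not pass the test (edgeR adjusted p = 0.197), and it was -0.18 without TPS line 1 and -0.18 without composition factors (adjusted p = 0.511). The interval excludes a rise of the size measured for Sox4.

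The spread between lines was set beside that between the technical replicates of a line. Line values came from 2 summed libraries, while the technical SD is that of single libraries, pooled over all 6 lines. The 2 kinds of SD are thus in unlike units. On log2(CPM + 1), the SD of Sox11 was 0.681 between TPS lines and 0.522 between EPS lines, against 0.155 between technical replicates. In line 1 the libraries measured 36.2 and 32.4 CPM for EPS and 25.3 and 23.0 CPM for TPS, while those of the other lines ranged from 46.9 to 70.3 CPM. For Sox4 the SDs were 0.250 between TPS lines, 0.320 between EPS lines and 0.0662 between technical replicates. In 1 group each, the SD between lines was below the technical SD for Sox12 and Sox15, at 0.0674 between EPS lines against 0.0966 for Sox12 and 0.0450 between TPS lines against 0.157 for Sox15. The same held for Sox3, Sox8 and Sox18 in EPS lines. Technical replicates differed by more than counting noise in every line, since chi-square over its degrees of freedom across genes ran from 2.58 to 22.3, the latter in EPS line 3.

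**Figure D3:**
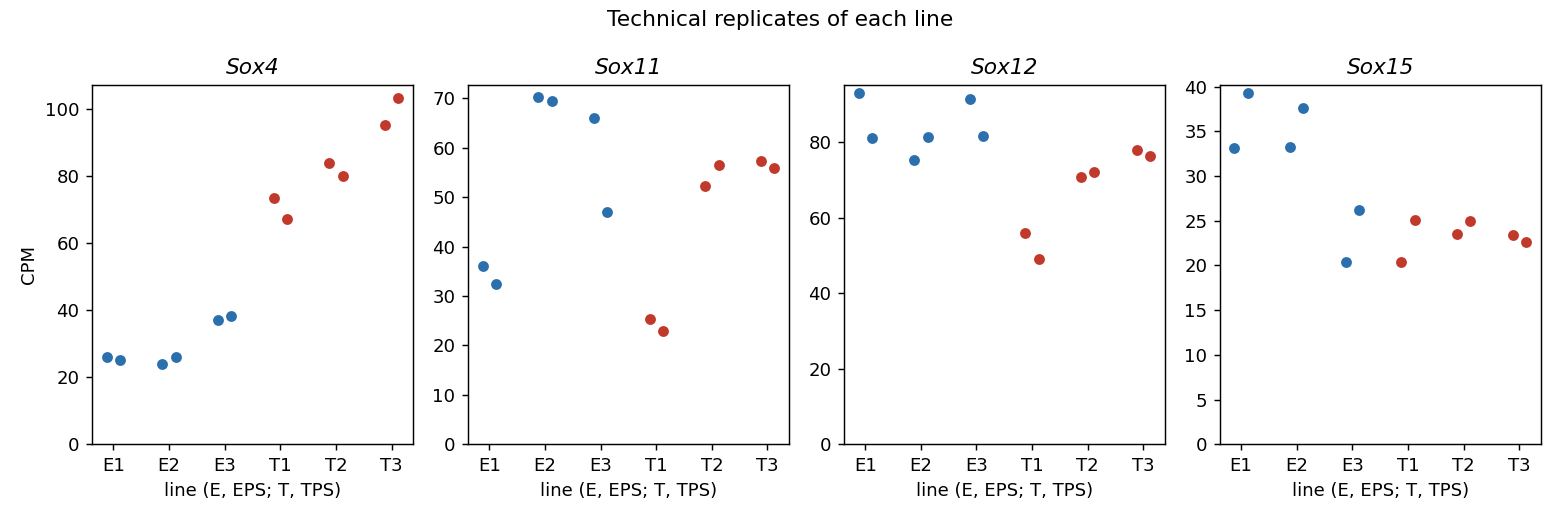
CPM of Sox4, Sox11, Sox12 and Sox15 in each of the 12 libraries, with the 2 technical replicates of a line side by side, EPS lines (E1 to E3) in blue and TPS lines (T1 to T3) in red. The libraries of line 1 hold the lowest Sox11 values of their group, and the Sox4 libraries of TPS lines lie above those of all EPS lines.

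The proximal promoters of the SoxC genes are shown because 1 of the 3 genes differed between the groups and the other 2 did not pass the test. They run from 250 bases before to 50 after the RefSeq start (GRCm38.p6), 5′ to 3′ on the strand of the gene, which is minus for all 3. Capitals mark every match, on either strand, to AGGTCA (the half-site bound by retinoic acid receptors and other nuclear receptors), GGGCGG (the GC box), CCAAT (the CCAAT box) and TATAAA (the TATA box), and matches that overlap run together. The windows are chr13:28953650-28953949 for Sox4, chr12:27342669-27342968 for Sox11 and chr2:152397997-152398296 for Sox12.
Sox4: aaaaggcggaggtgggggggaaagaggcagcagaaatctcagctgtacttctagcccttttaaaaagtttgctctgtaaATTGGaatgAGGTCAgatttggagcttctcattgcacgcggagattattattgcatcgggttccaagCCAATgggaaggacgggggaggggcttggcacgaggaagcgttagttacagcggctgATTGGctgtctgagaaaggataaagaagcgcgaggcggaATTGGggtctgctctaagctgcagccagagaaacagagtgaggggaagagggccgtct
Sox11: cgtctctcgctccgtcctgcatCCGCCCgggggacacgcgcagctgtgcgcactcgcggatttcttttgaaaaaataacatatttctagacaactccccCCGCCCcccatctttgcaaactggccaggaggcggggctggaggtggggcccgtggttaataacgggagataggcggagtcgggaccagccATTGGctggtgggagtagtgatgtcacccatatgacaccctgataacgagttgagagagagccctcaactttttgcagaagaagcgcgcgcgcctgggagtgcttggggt
Sox12: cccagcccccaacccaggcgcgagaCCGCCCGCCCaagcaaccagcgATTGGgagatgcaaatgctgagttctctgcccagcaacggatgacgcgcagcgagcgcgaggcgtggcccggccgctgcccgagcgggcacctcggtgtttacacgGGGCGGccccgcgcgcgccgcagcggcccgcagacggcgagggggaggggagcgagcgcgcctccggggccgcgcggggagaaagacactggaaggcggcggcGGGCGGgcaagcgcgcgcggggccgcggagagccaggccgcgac
The Sox4 window held 1 half-site, 4 CCAAT boxes and 0 GC boxes. The Sox11 window held 2 GC boxes and 1 CCAAT box, the Sox12 window held 4 GC boxes and 1 CCAAT box, and neither held a half-site. The TATA box had 0 matches in all 3. Of 32544 RefSeq promoter windows of this length, 16.2% held the half-site, 35.9% the GC box, 37.4% the CCAAT box and 13.6% the TATA box on either strand. The GC content was 52.0% for Sox4, 58.7% for Sox11 and 76.7% for Sox12, against a median of 53.0% over all windows, and the windows held 12, 21 and 47 CpG dinucleotides, against a median of 7. A match is a description of the letters only.

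The SoxE genes Sox8 and Sox9 were low in both groups and were called higher in TPS cells. Sox8, which acts with Sox9 in gonad and glia, lies at chr17:25565892-25570686 on the minus strand (ENSMUSG00000024176.10). It had 4, 1 and 6 counts in EPS lines 1, 2 and 3 and 31, 55 and 38 counts in TPS lines 1, 2 and 3, or 0.131, 0.029 and 0.171 CPM against 0.774, 1.43 and 1.21 CPM. Every TPS line was above every EPS line. The log2 fold change was 3.32 (SE 0.607, 95% CI 1.91 to 4.73, edgeR adjusted p = 0.0102). Sox8 passed the filter on low counts only through the TPS lines, since no EPS line reached its cutoff of 0.280 CPM, so that it could be tested only because it was high there. On summed counts the ratio between the groups was 10.2, with an exact 95% interval of 5.51 to 21 that covers counting error only. The call was kept in 16 of 17 alternative fits and lost at the stricter threshold of 0.01, while its log2 fold change ran from 2.56 with the first technical library of each line alone to 4.06 with the second.

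The antisense gene 2810468N07Rik shares 329 bases, or 11% of the Sox8 transcript, with Sox8 in reverse. It had 28, 22 and 27 counts in EPS lines and 36, 88 and 27 counts in TPS lines 1, 2 and 3, with a log2 fold change of 0.79 (SE 0.490, edgeR adjusted p = 0.279). Unlike Sox8, its groups overlapped. Reads from the shared stretch cannot be told apart if strand was not used.

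Sox9, which directs cartilage formation and testis development and also acts in neural crest and many epithelial progenitors, lies at chr11:112782224-112787760 on the plus strand (ENSMUSG00000000567.5). It had 3, 22 and 12 counts in EPS lines 1, 2 and 3 and 47, 89 and 54 counts in TPS lines 1, 2 and 3, or 0.098, 0.648 and 0.342 CPM against 1.17, 2.31 and 1.72 CPM. The groups did not overlap, but the EPS lines ranged widely. Sox9 had a log2 fold change of 2.24 (SE 0.632, 95% CI 0.77 to 3.70, edgeR adjusted p = 0.0416). The call was lost when any line but EPS line 2 was left out, with edgeR adjusted p of 0.0622, 0.102 and 0.0992 without TPS lines 1, 2 and 3, 0.0701 without EPS line 1, 0.0426 without EPS line 2 and 0.102 without EPS line 3. In these fits the log2 fold change stayed between 1.78 and 2.91. Over all 17 alternative fits the call was lost in 7, the other 2 being the first technical library of each line alone (edgeR adjusted p = 0.0730) and the threshold of 0.01. Sox10, the third SoxE gene, measured 1.07 ± 0.536 CPM in TPS and 0.380 ± 0.0794 CPM in EPS cells (log2 fold change 1.48, edgeR adjusted p = 0.0720).

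The SoxD genes did not pass the test. Sox6, which with Sox5 supports the action of Sox9 in chondrocytes, lies at chr7:115470872-116038796 on the minus strand (ENSMUSG00000051910.13). It measured 0.457, 0.441 and 0.968 CPM in EPS lines 1, 2 and 3 and 1.40, 2.51 and 1.59 CPM in TPS lines 1, 2 and 3. All TPS lines were above all EPS lines, and the log2 fold change was 1.55 (SE 0.469, 95% CI 0.46 to 2.64, edgeR adjusted p = 0.0512). It passed the threshold in 6 of 17 alternative fits, among them DESeq2 (adjusted p = 0.0177), limma-voom (adjusted p = 0.0473) and edgeR without EPS line 3 (adjusted p = 0.0399). The adjusted p of Sox6 over all 17 ran from 0.00237 to 0.142. The lowest value and 1 of the 6 passes came from edgeR with the 12 libraries as separate samples, which takes technical replicates as independent. The gene 1110004F10Rik, which starts 601 bases from the Sox6 start, had a log2 fold change of -0.02 (edgeR adjusted p = 0.916).

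Sox5 lies at chr6:143828425-144781977 on the minus strand (ENSMUSG00000041540.16). It had 2, 9 and 20 counts in EPS lines 1, 2 and 3 and 39, 25 and 5 counts in TPS lines 1, 2 and 3. The groups overlapped, and TPS line 3 was below 2 of the EPS lines. The log2 fold change was 0.98 (SE 0.820, 95% CI -0.93 to 2.88, edgeR adjusted p = 0.426), so neither a rise like that of Sox6 nor no difference was excluded by the interval. With 1 line left out the value ran from 0.43 without TPS line 1 and 0.49 without EPS line 1 to 1.80 without EPS line 3. Sox13, the third SoxD gene, measured 49.1 ± 7.86 CPM in TPS and 58.7 ± 16.3 CPM in EPS cells (log2 fold change -0.26, edgeR adjusted p = 0.441).

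Sox18, a SoxF factor of vessel and lymphatic endothelium, lies at chr2:181669836-181671640 on the minus strand (ENSMUSG00000046470.5). It had 9, 5 and 7 counts in EPS lines 1, 2 and 3 and 7, 36 and 23 counts in TPS lines 1, 2 and 3. TPS lines 2 and 3 were above the EPS lines and TPS line 1 was among them, at 0.175, 0.933 and 0.731 CPM in TPS against 0.294, 0.147 and 0.199 CPM in EPS lines. On summed counts the ratio was 2.85, with an exact 95% interval of 1.72 to 4.90 for counting error only. Where other settings let it be tested, it did not pass. The log2 fold change was 1.52 in DESeq2 (adjusted p = 0.19) and 1.49 in edgeR with every gene that had a count (adjusted p = 0.183). With 1 line left out, edgeR gave 1.95 without TPS line 1 (adjusted p = 0.0548) and 1.77 without EPS line 1 (adjusted p = 0.186). The edgeR value for Sox18 was 1.29 without EPS line 2 (adjusted p = 0.304) and 1.45 without EPS line 3 (adjusted p = 0.269). Of its SoxF relatives, Sox17, which acts in endoderm and arterial endothelium, was higher in TPS cells at 2.46 ± 1.22 against 0.378 ± 0.159 CPM (log2 fold change 2.69, SE 0.519, edgeR adjusted p = 0.0123), and Sox7 measured 2.24 ± 1.23 against 1.84 ± 1.03 CPM (log2 fold change 0.28, edgeR adjusted p = 0.760).

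Sox15 lies at chr11:69655314-69656727 on the plus strand (ENSMUSG00000041287.5). It measured 36.9, 36.0 and 23.5 CPM in EPS lines 1, 2 and 3 and 22.9, 24.3 and 22.9 CPM in TPS lines 1, 2 and 3. The TPS lines lay close together, EPS lines 1 and 2 were higher, and EPS line 3 lay among the TPS lines. The log2 fold change was -0.46 (SE 0.201, 95% CI -0.93 to 0.01, edgeR adjusted p = 0.140), and without EPS line 3 it was called lower (-0.65, edgeR adjusted p = 0.0413). Without composition factors it was -0.31 (adjusted p = 0.299). The end of Mpdu1, a gene of protein glycosylation, overlaps Sox15 on the other strand and had a log2 fold change of -0.72 (SE 0.243, edgeR adjusted p = 0.0715).

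Levels of different genes were compared per kb of exon. In TPS cells the order was Sox15 at 27.1 ± 0.890, Sox4 at 17.4 ± 3.06, Sox12 at 15.0 ± 2.95, Sox3 at 7.56 ± 1.93 and Sox11 at 5.40 ± 2.19 CPM per kb (SD, n = 3). The other 5 were under 1 CPM per kb, from Sox9 at 0.419 ± 0.137 to Sox5 at 0.041 ± 0.029. The lines of Sox4 and Sox12 overlapped, as did those of Sox3 and Sox11, of Sox9 and Sox18 and of Sox18 and Sox8. In EPS cells the order was Sox15 at 37.3 ± 8.66, Sox12 at 18.8 ± 0.877, Sox11 at 6.41 ± 2.19, Sox4 at 6.13 ± 1.48 and Sox3 at 1.72 ± 0.134 CPM per kb. Sox11 and Sox4 overlapped there, and so did each neighbouring pair among Sox18, Sox9, Sox6, Sox8 and Sox5, which lay between 0.132 ± 0.046 and 0.021 ± 0.018 CPM per kb. The lengths join all annotated exons, 861 bases for Sox15 and 14832 for Sox6, so genes with many alternative exons come out low.

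The sum of the 10 levels was 73.8 ± 10.5 CPM per kb in TPS and 70.7 ± 6.53 CPM per kb in EPS cells, and the lines overlapped (SD, n = 3, exact two-sided permutation p = 0.6). Its make-up was read as the share of each gene in each line. The shares of a line add up to the whole, so higher shares of some genes lower those of others. Sox12 and Sox15 were not called lower in the main test. Sox4 took 7.20%, 6.97% and 12.4% of the sum in EPS lines 1, 2 and 3 and 23.5%, 21.9% and 25.2% in TPS lines 1, 2 and 3. Sox3 took 2.45% ± 0.315 in EPS and 10.1% ± 1.25 in TPS cells. Sox15 took 58.1%, 55.6% and 43.2% in EPS lines and 43.0%, 36.3% and 32.5% in TPS lines, where the highest TPS line nearly reached the lowest EPS line. Sox12 took 26.8% ± 3.44 in EPS and 20.2% ± 1.20 in TPS cells. The lines did not overlap for these 4 shares, which with 3 lines against 3 gives the smallest p that an exact two-sided permutation test allows, p = 0.1, and cannot pass 0.05. Sox11 took 9.12% ± 3.11 in EPS and 7.12% ± 2.14 in TPS cells (exact permutation p = 0.4), and each of the other 5 took under 1% in every line. The size of these differences depended on the correction for length. The mean share in TPS minus EPS lines was -15.0 points with it and -5.85 points without it for Sox15, -6.61 and -13.5 points for Sox12, and -2.0 and -7.68 points for Sox11. It was 7.68 and 4.71 points for Sox3 and 14.7 and 20.6 points for Sox4, so each kept its direction. The Sox11 difference was -0.766 points without TPS line 1, -0.935 points without EPS line 2, -1.29 points without EPS line 3 and -3.78 points without EPS line 1.

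**Figure D4:**
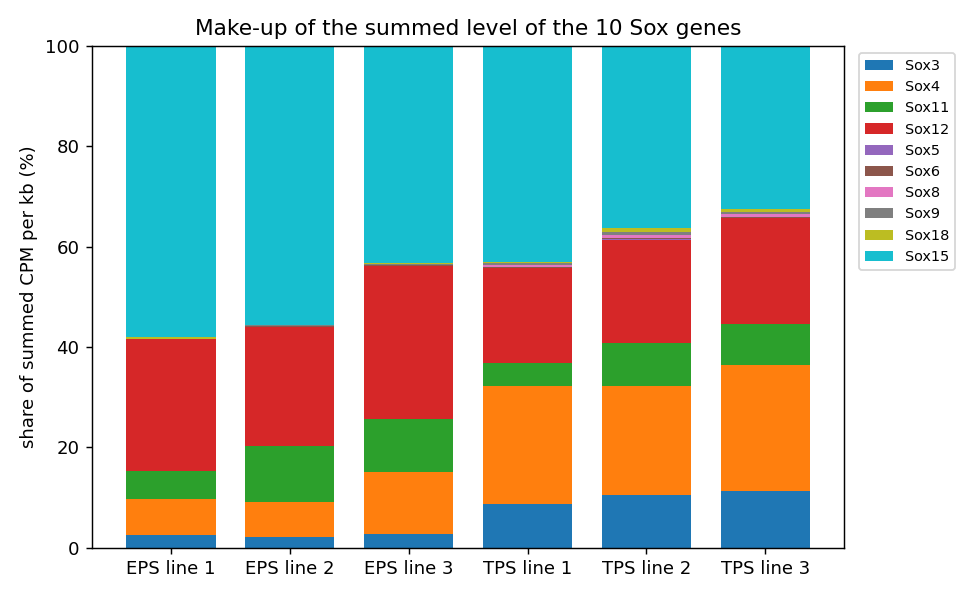
Share of each member in the summed CPM per kb of the 10 Sox genes, in percent, as 1 stacked bar per line. The Sox4 segment takes 21.9% to 25.2% of the bar in TPS lines and 6.97% to 12.4% in EPS lines.

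Among the SoxC genes alone, Sox4 made up 19.4% ± 3.40 of the summed level in EPS and 46.4% ± 3.49 in TPS cells, and Sox12 60.3% ± 6.09 and 39.8% ± 0.936 (SD, n = 3). The log2 ratio of Sox4 to Sox12 in CPM, a ratio within each line that no scaling between lines can move, was -1.54 ± 0.304 in EPS and 0.33 ± 0.118 in TPS cells. Sox12 had the higher CPM of the pair in all 3 EPS lines, and Sox4 in all 3 TPS lines. The log2 ratio of Sox4 to Sox11 was -0.82 ± 0.579 in EPS and 0.98 ± 0.501 in TPS cells, and it too did not overlap between the groups (exact two-sided permutation p = 0.1 for both ratios, the smallest possible).

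Genes of the tissues in which these factors act were read from lists, by counts and medians, beside 14.4% higher, 7.34% lower and a median of 0.00 over all tested genes. In cartilage, where Sox9, Sox5 and Sox6 act together, 11 of 15 listed genes were tested, 4 were higher and 1 was lower in TPS cells, with a median log2 fold change of 0.49. The higher genes included Col9a2 (log2 fold change 2.95, edgeR adjusted p = 0.00261), Col11a1 (2.54, adjusted p = 0.00291) and Col2a1 (2.41, adjusted p = 0.00576), which encode collagen chains of cartilage matrix. Col2a1 measured 11.4 ± 0.899 CPM in TPS and 2.14 ± 0.988 CPM in EPS cells. Matn1, a cartilage matrix protein, was lower (-1.93, adjusted p = 0.0396), and Matn3, the most abundant gene not called, had a log2 fold change of -0.49 (adjusted p = 0.409).

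Of 15 vascular endothelial genes, among which Sox18 acts, 11 were tested, 6 were higher and 1 was lower, with a median of 1.84, against 14.4% and 7.34% of all genes. Flt4, the VEGF receptor of lymphatic endothelium (log2 fold change 2.17, edgeR adjusted p = 0.00667), Kdr, the main VEGF receptor of blood vessels (2.27, adjusted p = 0.0158) and Cldn5, a tight junction protein (1.68, adjusted p = 0.0214) were higher. Tek, the angiopoietin receptor, was lower (-1.13, adjusted p = 0.0410), and Pecam1, the most abundant gene not called, measured -0.03 (adjusted p = 0.940). Levels of some further genes, chosen after their values were seen, ranged widely: Pecam1, which pluripotent cells also express, measured 81.5 ± 24.4 CPM in TPS and 83.1 ± 11.0 CPM in EPS cells, Flt1 26.2 ± 12.8 and 7.30 ± 3.99 CPM, Egfl7 13.9 ± 2.55 and 12.7 ± 5.13 CPM, and Tek 8.59 ± 0.431 and 18.8 ± 8.46 CPM. Cdh5 was at 0.302 ± 0.174 CPM in TPS and 0.029 ± 0.029 CPM in EPS cells, and Emcn had 0 counts in all lines. The list summed to 145 to 197 CPM in TPS and 128 to 152 CPM in EPS lines.

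Of 16 neural crest and glial genes, where SoxE factors act, 13 were tested, 3 were higher and 2 lower, with a median of 0.14, against 14.4% higher and 7.34% lower over all genes. The homeobox factor Msx1 (log2 fold change 2.47, edgeR adjusted p = 0.0146), Ets1 (1.92, adjusted p = 0.0152) and Pax3 (3.62, adjusted p = 0.0264) were higher. Pax3 passed the filter only through the TPS lines, and without it 2 of 12 were higher and 2 lower, with a median of 0.11. Mitf, the melanocyte factor (-1.86, adjusted p = 0.0120), and Foxd3 (-1.77, adjusted p = 0.0273), which is also a factor of pluripotent cells, were lower. Erbb3, the most abundant not called, measured -0.53 (adjusted p = 0.154).

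Of 15 early neuronal genes, where Sox4 and Sox11 act, 11 were tested, 3 were higher and 2 lower, with a median of -0.36, against the same 14.4% and 7.34%. Gap43, of growing axons (log2 fold change 1.59, edgeR adjusted p = 0.0154), Nefm, a neurofilament (2.91, adjusted p = 0.0326) and Tubb3, the neuronal beta tubulin (1.20, adjusted p = 0.0447) were higher. Stmn2 (-1.33, adjusted p = 0.00251) and Mapt (-1.14, adjusted p = 0.0205), both regulators of microtubules, were lower. Ncam1, the most abundant not called, measured 0.76 (adjusted p = 0.0593), and Dcx, of migrating neurons, was at 0 in all EPS lines and at 0.032 CPM in 1 TPS line.

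Of 7 skeletal muscle genes linked to Sox15 and Sox8, 3 were tested and did not pass (Foxk1, Fhl3 and Des), against 14.4% higher and 7.34% lower over all genes. The muscle regulators Myf5, Myod1 and Myog and the satellite cell factor Pax7 were too low to test, and Foxk1, a partner of Sox15 in muscle, measured a log2 fold change of 0.17 (edgeR adjusted p = 0.509). Of the 10 other Sox genes listed, 8 were tested, with a median of 0.46, and Sry had 0 counts in all lines. Among the 8, 1 was higher (Sox17), or 12.5%, near the 14.4% of all genes. The other 7 did not pass, against 7.34% lower over all genes. Of the 4 TCF/LEF genes, HMG-box factors of Wnt signalling outside the Sox family, Tcf7l1 was higher (log2 fold change 0.77, edgeR adjusted p = 0.0255). The other 3 TCF/LEF genes did not pass, Tcf7 among them at -0.39 (adjusted p = 0.224), against the same 14.4% and 7.34%. The summed fibroblast level was also higher in the TPS lines, and its part in the calls of these lists was not tested.

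The genes whose log2(CPM + 1) was most like that of a called member over the 12 libraries were taken by Pearson's r, as a description, since the libraries share 6 lines and 2 groups. They were Gm9044 (r = 0.991), Pramef25 (0.986) and Cebpa (0.985) for Sox3. For Sox4 they were Fam171b (0.993), Pomgnt2 (0.990) and Zyx (0.989). For Sox8 they were Gm4981 (0.971), Ephx4 (0.965) and Gm47486 (0.963), and for Sox9 Efnb1 (0.974), Kctd10 (0.967) and Ttll12 (0.966).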

How the data were processed

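The deposited files hold raw read counts per gene, 1 file per library. The authors trimmed reads with fastp 0.19.7 and aligned them with STAR 2.7.3a to GRCm38 (per the submitters' processing notes and methods), and the counting tool, annotation, strand and treatment of multimapped reads are not given in the sources used here. Of 55401 gene IDs, 55141 matched GENCODE M21 without their version. Counts of the 2 libraries of each line were added. Genes were kept by filterByExpr (minimum count 10, minimum total 15) and tested with edgeR 4.0.16 (TMM, quasi-likelihood, no covariates, Benjamini-Hochberg over 17468 genes, threshold 0.05) in R 4.3.3. CPM are counts per 1e6 of the TMM-scaled total, and log2 fold changes are TPS minus EPS. Intervals of summed counts are exact and cover counting error only. Likeness was searched with blastn 2.17.0. On simulated counts of this design, 165 of 191 genes changed 4-fold were recovered, with 3 false calls among 17185 tested. Every simulated gene had the same biological coefficient of variation, 0.326, while those of the tested members ran from 0.188 (Sox12) to 0.665 (Sox5). The recovery therefore need not hold for single members. The members and lists were chosen with earlier results of these data known. From each list, up to 3 called genes per direction with the lowest adjusted p and the most abundant uncalled gene are named, and other genes (subgroup relatives, neighbours, further pluripotency, endothelial, muscle and neuronal genes) were added after their values were seen. Alternatives covered scaling, filters, DESeq2 1.42.0, limma-voom 3.58.1, single libraries, left-out lines and a line block. Sequences came from GENCODE M21 transcripts and RefSeq promoter windows, which matched 7 of the 10 members.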

Additional observations from a re-analysis of the deposited data

How the results depend on the processing

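Against 4 members higher and 0 lower, a filter at a mean of 100 counts left 2 higher, and so did a threshold of 0.01, since low genes were then not tested or not called. Counting the 12 libraries as separate samples gave 2 lower (Sox12 and Sox15). The first technical library of each line alone gave 3 higher (without Sox9), among 2000 higher and 1029 lower genes, and the second 5, among 2074 and 1063. Leaving out 1 line gave 3 to 4 higher and 0 to 1 lower, the 1 being Sox15 without EPS line 3. The log2 fold change of Sox11 ranged from -0.51 to 0.054 over these fits, and was 0.054 without TPS line 1, where its sign turned, and the cause was not tested. Sox3, Sox4 and Sox8 kept their calls in every left-out fit, although Sox8 passed the filter of the main fit only through the TPS lines. Over all genes, 2509 higher and 1282 lower calls became 2987 and 745 without composition factors, which raised the median of all genes to 0.14, 3290 and 1535 with every gene that had a count, 1506 and 849 at a mean of 100 counts, 4067 and 3610 with 12 libraries, 873 and 258 at a threshold of 0.01, and 1617 to 2234 and 493 to 1047 with 1 line left out. With the line number as a replicate block, 4 members were higher and 0 lower, and 1714 and 721 genes were called. Deviations of same-numbered lines from their group means correlated across genes at 0.024, -0.116 and 0.042. Those of differently numbered lines ranged from -0.244 to 0.231. These values cannot decide whether the numbers pair the lines, since the labels do not give the origin of each TPS line. Depth limits Sox5, Sox8 and Sox18, with under 60 counts in every line. In EPS lines 1, 2 and 3 it also limits Sox9, with 3, 22 and 12 counts, and Sox6, with 14, 15 and 34 counts.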
